A study of Mus musculus with 10 samples.

Results

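The stretch of mouse chromosome 6 that holds Dppa3 and Nanog was described in 4 cell types by FAIRE-seq, an assay that sequences the DNA left in the aqueous phase once fixed chromatin has been broken up and extracted with phenol. Such DNA is poor in nucleosomes, and the places where it piles up are listed by the authors as sites. The locus was taken as chr6:122550001-122690000 on build mm9, and a site belonged to it if it shared at least 1 bp with this window. By this rule 169 of the 1816946 sites of the series were members, 89 of them from the embryonic stem cell list, 46 from the epiblast stem cell list, 13 from the neural stem cell list and 21 from the fibroblast list. Dppa3 was placed at about 122576000 to 122581000 and Nanog at about 122657500 to 122664700. These limits are rounded, so distances from a gene start carry an error of up to about 1 kb at Dppa3, whose interval of 5000 bp is longer than its RefSeq gene of 3848 bp, and a smaller one at Nanog, where the interval is 7200 bp and the RefSeq gene 7145 bp.

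Embryonic stem cells (ESC) were the E14 line, kept without serum with 1 uM of a MEK inhibitor, 3 uM of a GSK3 inhibitor and 1000 U/ml LIF, the condition called ground state. Epiblast stem cells (EpiSC) were the E3 line, grown with 5 ng/ml FGF2 on mitotically arrested fibroblasts and moved to plates without feeders 2 days before fixation. They stand for primed pluripotency. Neural stem cells (NSC) were progenitors obtained from ES cells, grown with 10 ng/ml each of FGF2 and EGF. Fibroblasts (MEF) came from E16.5 embryos, and 1 label of these samples names neural chromatin whereas title and cell type name fibroblasts. No strain, sex or genetic change is given for any group. Each cell type has 2 samples and 1 list was analysed here, so spread between replicates is missing and differences between cell types are given as values with no test. Read depth is unknown: a list without a site at a place shows only that none passed the authors' threshold there.

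Nanog is a homeodomain transcription factor of the pluripotency network, best known for sustaining self-renewal of ES cells. Dppa3, also called Stella or PGC7, is a maternal-effect factor that shields parts of the genome of the early embryo from loss of DNA methylation. It is expressed in the germ line and in ground-state ES cells and is low in primed cells. Mouse ES cells have enhancers 5 kb and 45 kb before the Nanog start. In the RefSeq gene table of build GRCm38.p6 the protein-coding neighbours run in the order Apobec1, Gdf3, Dppa3, Nanog, Slc2a3, and between Dppa3 and Nanog lie 4 other gene models, all pseudogenes or small nucleolar RNA. Both genes are known to have retrotransposed copies elsewhere in the mouse genome, and the sources used here do not say how reads that match several places were treated.

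Of the 2 genes, only Nanog had its promoter taken from the RefSeq promoter table and searched. The 250 bases before the Nanog start are shown because both pluripotent lists had a site over this position and neither somatic list did. The sequence is on the plus strand of GRCm38.p6, at chr6:122707239-122707488, a build whose coordinates are not to be set beside the mm9 positions of the sites. Capitals mark matches, on either strand, to the core letters TTTGCAT of the POU octamer and CATTGT of the SOX family.

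Nanog promoter: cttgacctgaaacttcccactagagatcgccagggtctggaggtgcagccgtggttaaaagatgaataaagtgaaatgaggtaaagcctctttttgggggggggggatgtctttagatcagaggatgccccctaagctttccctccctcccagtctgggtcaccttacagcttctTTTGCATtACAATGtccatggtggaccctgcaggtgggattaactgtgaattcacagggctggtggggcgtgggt

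The octamer core was matched once, 75 to 69 bases before the start on the plus strand, and the SOX core once, 67 to 62 bases before it on the minus strand. The matches do not overlap. Of the 32851 promoters listed, 4.12% held the octamer core and 10.7% the SOX core in the same 250 bases. The letters GGGCGG, a core of the GC box, and CACCC, a core of KLF sites, had no match in this stretch and were present in 32.7% and 52.0% of promoters. These are matches of letters and not measured binding.

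At the Nanog start the cell types fell into 2 kinds. In ESC a site of 1123 bp, from 122656941 to 122658063, lay over the start, with a score of 13.7, higher than 98.9% of the scores of its list. The score is the authors' own, has no stated unit and is read here within a list only. A second ESC site of 318 bp lay ahead of it, from 122656475 to 122656792, with a score of 5.94. In EpiSC a site of 2061 bp, from 122656263 to 122658323, lay over it with a score of 5.89, higher than 86.0% of EpiSC scores. The site nearest to the start ended 2094 bp before it in MEF (146 bp wide, score 3.65) and 3240 bp before it in NSC (528 bp wide, score 2.13). The last 1 kb before the start was covered to 85.2% by ESC sites and throughout in EpiSC, and held no site of the other lists.

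The body of Nanog followed its start. ESC had 6 sites overlapping the gene interval and covering 47.6% of it, and EpiSC had 5 covering 28.7%. MEF and NSC had none. Behind the start, ESC sites of 520, 454, 599, 525 and 763 bp had scores of 6.12, 8.93, 1.67, 3.70 and 3.00, so the scores were highest in the 5′ part of the gene. The EpiSC sites inside the gene were narrower, at 309, 241 and 479 bp with scores of 2.89, 1.44 and 1.51, and each of these 3 overlapped an ESC site. Of the 6 ESC sites, 5 overlapped EpiSC and the widest of those that lay wholly inside the gene, 763 bp from 122662697 to 122663459, was in no other list.

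A further block of sites of the pluripotent lists began at the 3′ end of Nanog. An EpiSC site of 2158 bp ran from 122664484 to 122666641 (score 6.71, above 90.2% of its list) across the end of the interval. In ESC the same block was cut into 3 sites of 646, 725 and 576 bp, ending at 122666832, with scores of 3.50, 10.1 and 13.9. The last of these was the third highest score of ESC at the locus. As merged, the block spans 6.98 to 9.33 kb after the Nanog start, and NSC and MEF had no site in it.

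Some 5 kb before Nanog, at the position of the known proximal enhancer, all 4 lists had sites. In ESC a site of 1249 bp from 122652041 to 122653289 scored 13.9, above 99.0% of its list, with a second of score 5.69 behind it and a small site of 144 bp from 122651586 (score 2.96) ahead of it. EpiSC had sites of 1324 bp (score 6.86) and 850 bp (score 8.57, the highest of EpiSC at the locus, above 95.7% of its list). The latter was nearer to the gene, -4.01 to -3.16 kb from the Nanog start. MEF had sites of 1331 bp (score 8.21, its highest and widest here, above 94.6% of its list) and 846 bp (score 5.60). NSC had sites of 1176 bp (score 8.31, its widest here, above 85.9% of its list) and 528 bp (score 2.13). In each list the last of these sites lay mostly past the 2 kb centred 5 kb before the start, and in NSC wholly past it. Of the 2 kb centred on this point 74.7% was covered in ESC, 66.8% in EpiSC, 73.8% in MEF and 53.0% in NSC. Merged over the lists, the region ran from 122651870 to 122654337, or -5.63 to -3.16 kb from the Nanog start. The enhancer position and the start thus differed between cell types in different ways: sites of all lists at the former, and of the pluripotent lists at the latter.

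**Figure D1:**
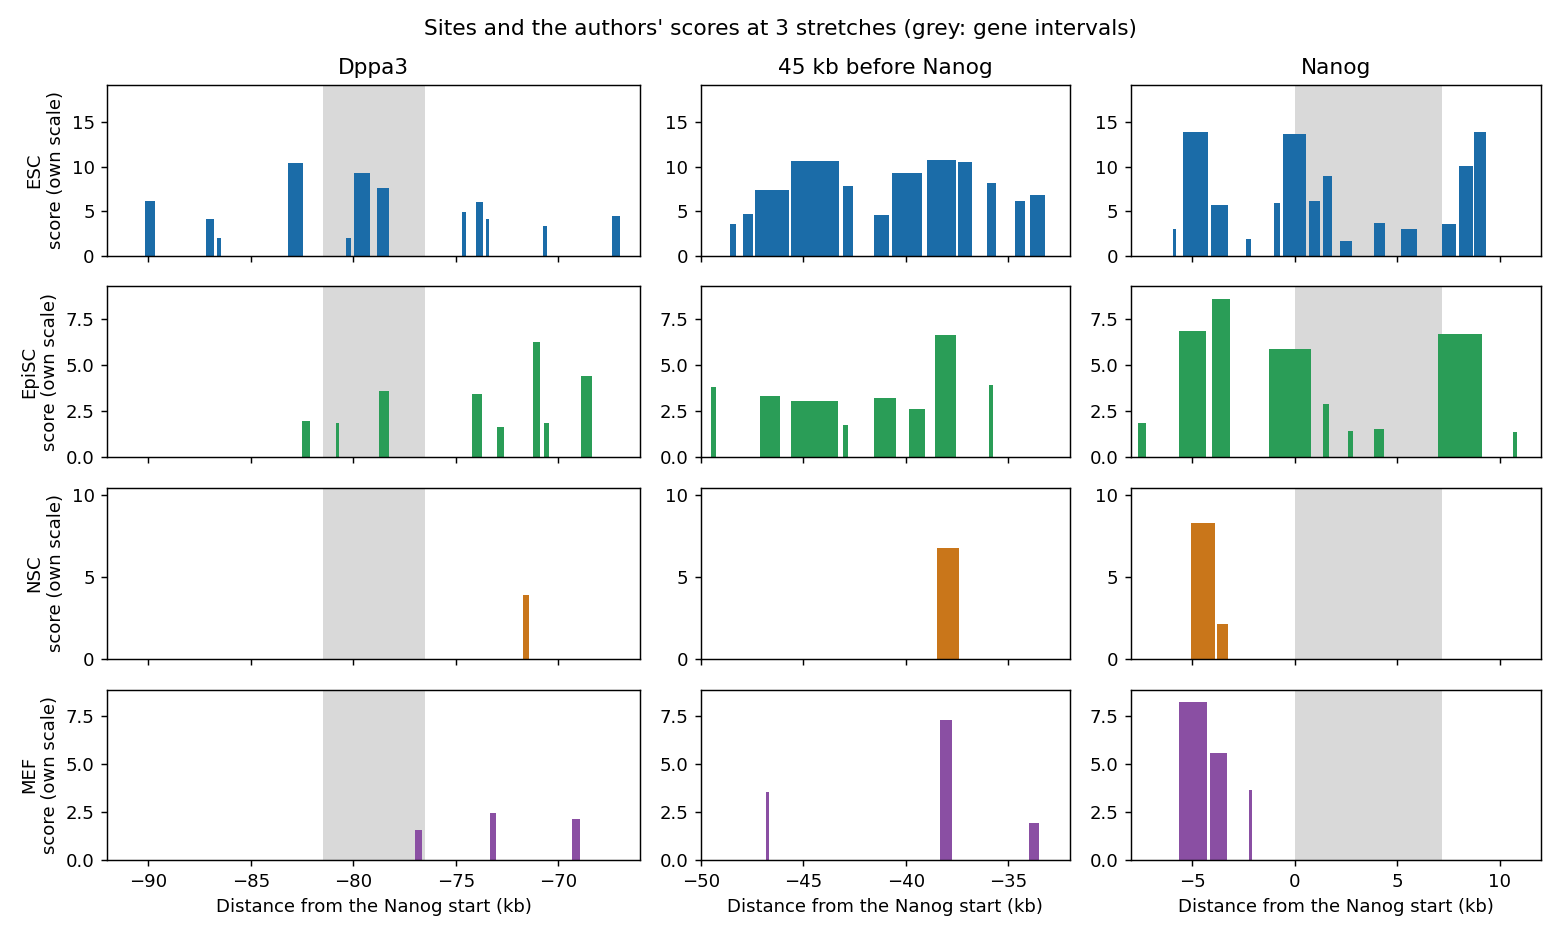
Sites at Dppa3, around 45 kb before Nanog and at Nanog; the x axis is the distance from the Nanog start in kb, bar width is the width of a site and bar height the authors' score on the scale of its own list. At Nanog all 4 lists have sites about 5 kb before the start, and only ESC and EpiSC have sites over the start and the gene.

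Around 45 kb before Nanog the pattern was that of the Nanog start. Of the 2 kb centred there ESC covered 95.1% and EpiSC 80.4%, and NSC and MEF had no site in it. The ESC site from 122611888 to 122614220 was 2333 bp wide with a score of 10.7, and the EpiSC site from 122611893 to 122614165, 2273 bp wide and the widest of that list at the locus, had almost the same limits and a score of 3.06, above 53.1% of its list. Ahead of them, an ESC site of 1636 bp from 122610154 to 122611789 reached into the same 2 kb with a score of 7.35. The 10 kb from 50 to 40 kb before Nanog were the most covered of the locus in both pluripotent lists, at 67.4% in ESC and 47.9% in EpiSC. NSC covered none of this stretch, and MEF had 1 site of 185 bp in it (score 3.55), which was 1.85% of the bases.

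From 40 to 30 kb before Nanog the open block went on and was in part shared with somatic cells. ESC covered 46.6% of these bases, EpiSC 20.0%, MEF 11.2% and NSC 11%. A region from 122618550 to 122620725, or -38.95 to -36.78 kb from the Nanog start, was in all 4 lists. Its highest score was 10.8 in ESC (above 95.8% of the list), 7.29 in MEF (above 91.5%), 6.62 in EpiSC (above 89.8%) and 6.76 in NSC (above 77.9%). The MEF site there was the second highest of MEF at the locus. The next block towards Dppa3, merged from 122615933 to 122618431, had 2 ESC and 2 EpiSC sites and no somatic one.

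**Figure D2:**
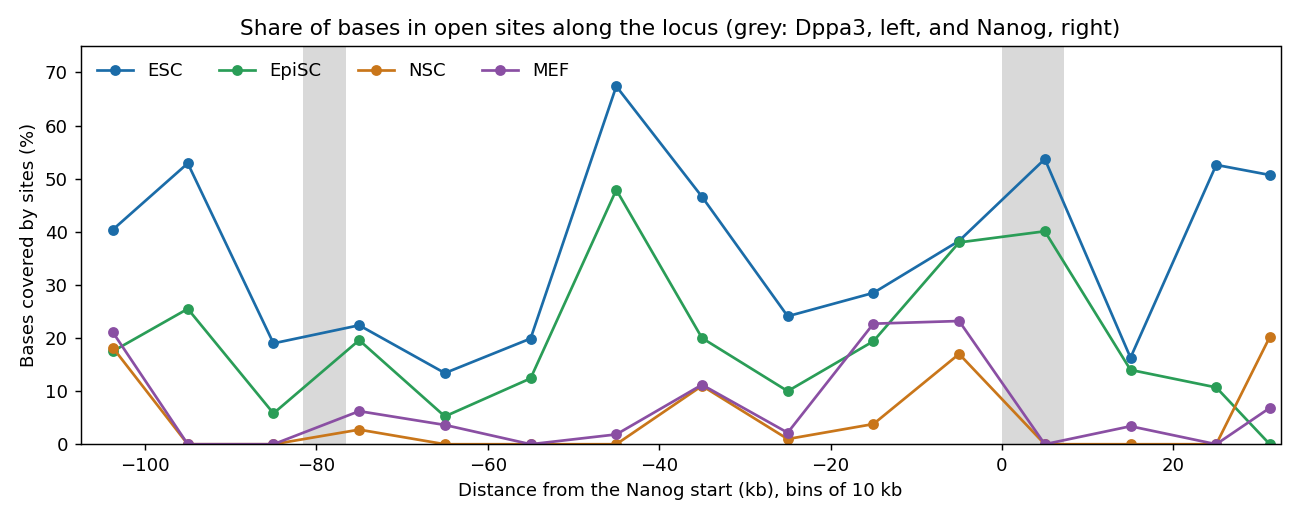
Percent of bases covered by sites in bins of 10 kb (y axis) against distance from the Nanog start in kb (x axis), a line for each list; the outermost bins are shortened by the edges of the locus. ESC lie above the other lists in all bins, with peaks of 67.4% from -50 to -40 kb and 53.7% from 0 to 10 kb, and NSC and MEF lie at 0.0% in the latter.

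In both pluripotent lists the Dppa3 interval, which is shorter, held fewer sites than that of Nanog and lower top scores, and no list had a site over the position taken as its start. In ESC 3 sites lay in the interval and covered 32.5% of it: 258 bp from 122577152 (score 1.98), 771 bp from 122577549 (score 9.26, above 92.1% of the list) and 594 bp from 122578645 (score 7.61). EpiSC had 2, of 174 bp from 122576650 (score 1.87) and 500 bp from 122578745 (score 3.60), covering 13.5%. The latter overlapped the third ESC site and had almost the same limits. MEF had 1 weak site of 367 bp near the far end of the interval (score 1.58, above 6.03% of its list), and NSC none. The interval is longer than the RefSeq gene, so whether this MEF site lies within the gene is not known.

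Ahead of Dppa3, the nearest ESC site ended 975 bp before the start position (691 bp wide, score 10.4, above 95.2% of its list). The nearest EpiSC site, 407 bp wide with a score of 1.98, above 29.2% of its list, ended 609 bp before it and overlapped the ESC site. The closest sites of the somatic lists began 4494 bp (MEF) and 9807 bp (NSC) after it. With 10 kb on both sides of the gene ESC had 12 sites, EpiSC 8, MEF 3 and NSC 1. The same count at Nanog was 18 in ESC, 10 in EpiSC, 4 in MEF and 2 in NSC, over 27.2 kb against 25 kb at Dppa3. Covered bases set the genes further apart, at 18.8% and 37.1% in ESC and 12.3% and 31.7% in EpiSC, for Dppa3 and Nanog in that order.

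Between the genes, over 76.5 kb, ESC had 48 sites, EpiSC 26, MEF 14 and NSC 7, which covered 32.3%, 21.9%, 8.80% and 4.65% of the bases. A cluster of MEF sites lay in the 10 kb that begin 20 kb before Nanog, where MEF covered 22.7%, more than the 19.4% of EpiSC and the 3.80% of NSC, beside 28.5% in ESC. It was led by a MEF site of 881 bp from 122638798 (score 6.95, above 89.9% of its list). The ESC site with the highest score of the locus lay in the same region, 185 bp from 122639260 with a score of 17.8, above 99.8% of its list. EpiSC had a site of 516 bp there with a score of 6.85, and NSC had none.

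On the outer side of Dppa3 the 26 kb up to its interval had 16 ESC, 8 EpiSC, 4 NSC and 4 MEF sites. All NSC and MEF sites of this stretch lay beyond 100 kb before Nanog. A region from 122552015 to 122552942 was in all 4 lists, and next to it a region from 122553007 to 122553271 was in all but ESC, with the second highest NSC score of the locus, 9.06. Some 2 kb further towards Dppa3 lay the second highest ESC score, 17.4 in a site of 344 bp from 122555451, which also overlapped an NSC site of score 2.50. The widest ESC site of the locus, 2873 bp from 122558464 to 122561336 with a score of 7.57, was shared with 2 EpiSC sites and with no somatic one. The first of these EpiSC sites, 1212 bp from 122558121, had the second highest EpiSC score here, 7.09, and the third, 7.07, belonged to a site of 297 bp from 122601415.

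After Nanog, over 25.3 kb, ESC had 17 sites covering 39.9%, EpiSC 7 covering 17.4%, and NSC and MEF 2 each covering 1.99% and 2.02%. Most of the distance between the pluripotent lists arose 20 to 30 kb after the Nanog start, where ESC covered 52.6% and EpiSC 10.7%. Several of these ESC sites were low in their list, such as 1050 bp from 122681958 (score 1.52, above 7.83% of ESC scores) and 332 bp from 122686295 (score 1.30, above 0.907%). The highest NSC score of the locus, 9.68 in a site of 163 bp from 122688563, lay at the far end and overlapped an ESC site of score 5.71.

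**Figure D3:**
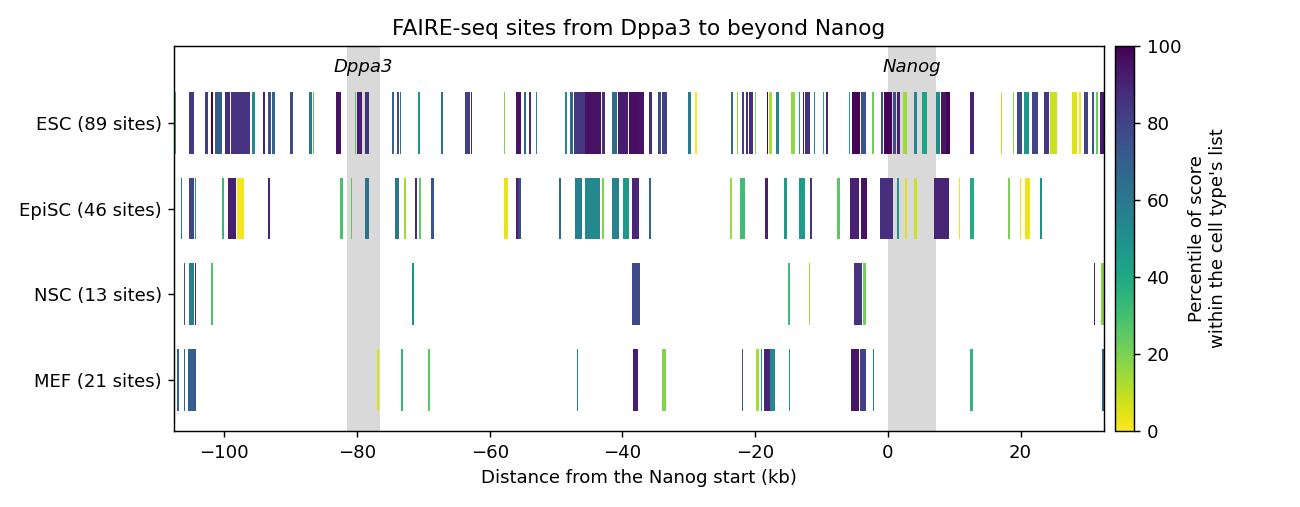
All 169 sites at their distance from the Nanog start in kb, a row for each list, coloured by the percentile of the score within that list; grey bands are the gene intervals. NSC have no site from -3.2 to 31.1 kb, which takes in all of Nanog, and MEF none from -104.2 to -77.0 kb.

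Stretches without any site were longer in the lists with fewer sites, which largely restates the counts. In ESC the 2 longest were 5062 bp and 4723 bp, and the median distance between neighbouring sites was 494 bp. In EpiSC they were 12002 bp and 10534 bp, with a median of 1378 bp. In NSC the longest, 34302 bp from 122654261 to 122688562, contained the Nanog gene and its start, and the next, 32914 bp from 122586082 to 122618995, contained the position 45 kb before it. In MEF they were 27223 bp from 122553271, which took in most of the Dppa3 interval, and 22104 bp from 122588549 to 122610652.

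Set against the rest of the genome, the locus was rich in ESC and EpiSC sites and poor in NSC sites. ESC sites covered 35.6% of its bases against 9.14% of the autosomes, a ratio of 3.89. The ratio was 2.87 in EpiSC (20.1% against 7.02%), 0.982 in MEF (6.57% against 6.69%) and 0.387 in NSC (3.88% against 10.0%). Cutting the autosomes into 17651 windows of 140 kb gave a median number of sites per window of 16 for ESC, 20 for EpiSC, 28 for NSC and 23 for MEF. At least as many ESC sites as the 89 of the locus were found in 0.635% of windows, or 112. At least as many EpiSC sites as its 46 were found in 10.7%, at least as many MEF sites as its 21 in 56.1% and at least as many NSC sites as its 13 in 72.3%. At most 13 NSC sites were found in 29.3% of windows, so an NSC count this low is common. Both pluripotent counts were reached in 78 windows. The ESC count was reached together with at most 13 NSC sites in 8, and all 4 conditions held in 2. The limits and their directions were taken from the locus itself, so these small numbers cannot show that the combination is unusual. With lists of equal length the locus held 83 ESC, 46 EpiSC, 20 MEF and 8 NSC sites. Windows cover unnamed stretches and some hold part of the locus itself. No sequence was masked, and windows without any site numbered 1506 for ESC, 1192 for EpiSC, 851 for NSC and 844 for MEF. Such windows lower the medians and the autosome coverage used here.

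**Figure D4:**
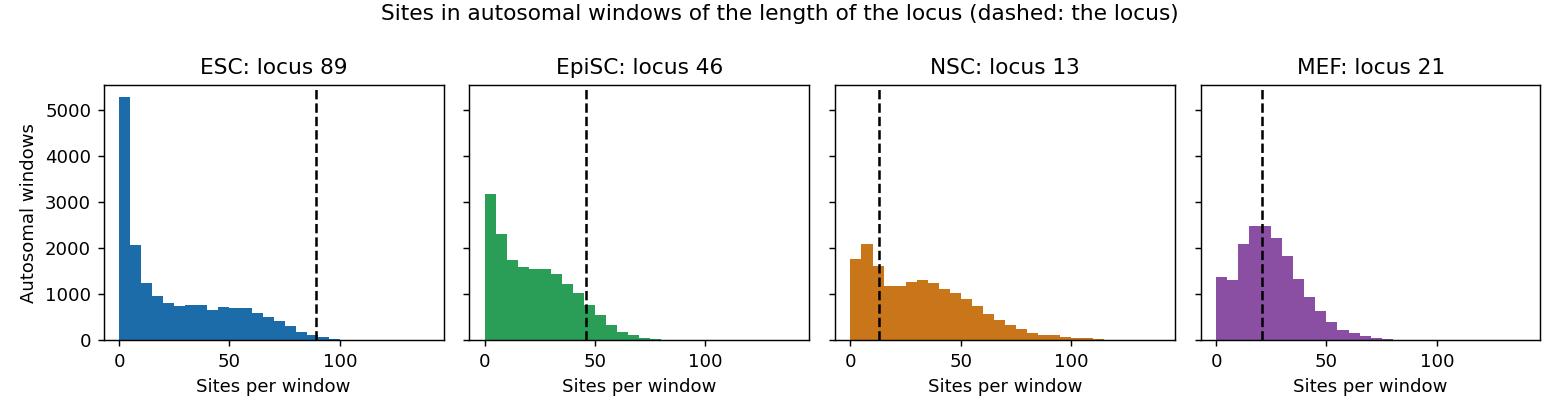
Number of autosomal windows of 140 kb (y axis) by the number of sites they hold (x axis, steps of 5), a panel for each list, with the locus as a dashed line. The locus is far to the right in ESC, to the right in EpiSC, near the middle in MEF and to the left in NSC.

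The members also differed in size and score. The median width was 449 bp in ESC, 414 bp in EpiSC, 363 bp in MEF and 240 bp in NSC, against 373, 338, 323 and 333 bp in the whole lists. Sites of 1 kb or more numbered 10 of 89 in ESC, 7 of 46 in EpiSC, 1 of 21 in MEF and 2 of 13 in NSC. These counts depend on the number of sites of each list here, and the share of such sites in the whole lists was not computed. Scores of ESC sites at the locus ran from 1.21 to 17.8 with a median of 5.85, beside 3.45 in the list, and 65 of 89 were above the list median. In EpiSC they ran from 1.36 to 8.57 with a median of 2.93, beside 2.90, and 23 of 46 were above it. In MEF 13 of 21 and in NSC 6 of 13 lay above the median of their list. Among the 5% of highest scores of their lists were 11 of 89 ESC sites (12.4%), 1 of 46 EpiSC sites (2.17%) and none of the 13 NSC and 21 MEF sites. The NSC and MEF sites are too few for this absence to be told from a share of 5%. The EpiSC list thus had many sites at the locus with ordinary scores, and the ESC list many with high ones.

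Sharing of sites was then compared with that in the whole lists. The exact 95% intervals beside the shares hold counting error alone, and sites next to each other are not independent. Of the ESC sites of the locus 39 (43.8%, 33.3 to 54.7) overlapped EpiSC, against 40.1% of all ESC sites. Of the EpiSC sites 34 (73.9%, 58.9 to 85.7) overlapped ESC, against 45%. By bases, 40.0% of the ESC and 70.7% of the EpiSC coverage was common to both. EpiSC sites here thus mostly lay in the more extended ESC pattern. ESC sites cover 3.89 times as large a share of this window as of the autosomes, and the part of this in the overlap was not tested. The 39 shared ESC sites had a median width of 642 bp, against 376 bp for the other 50, and a median score of 7.57, against 4.14. In the whole list these values were 461 and 332 bp and scores of 4.58 and 3.00. The 34 shared EpiSC sites had a median of 538.5 bp and a score of 3.27, against 315 bp and 2.38 for the other 12, and in the whole list 444 and 286 bp and 3.06 and 2.78. A wide site is more likely to share a base with another list by construction, and the order is that of the whole lists.

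Few ESC and EpiSC sites of the locus overlapped the somatic lists, which hold only 13 (NSC) and 21 (MEF) sites here. These small numbers limit how many sites can overlap, so the shares largely restate the counts above. Of the 89 ESC sites, 9 overlapped NSC (10.1%, 4.73 to 18.3, against 33.1% in the list) and 13 overlapped MEF (14.6%, 8.01 to 23.7, against 24.4%). For EpiSC the numbers were 6 in NSC (13.0%, 4.94 to 26.3, against 38.9%) and 9 in MEF (19.6%, 9.36 to 33.9, against 29.1%).

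Seen from the somatic lists, most of their few sites overlapped ESC sites. ESC sites cover 35.6% of this window against 9.14% of the autosomes, and EpiSC sites 20.1% against 7.02%. A site of any list is thus more likely to touch them here than elsewhere, and the part of this in the overlap was not tested. Of 13 NSC sites 8 overlapped ESC (61.5%, 31.6 to 86.1, against 25.3% in the list), 7 EpiSC (53.8%, 25.1 to 80.8, against 26.7%) and 8 MEF (61.5%, against 30.5%). Of 21 MEF sites 13 overlapped ESC (61.9%, 38.4 to 81.9, against 25%), 10 EpiSC (47.6%, 25.7 to 70.2, against 26.6%) and 8 NSC (38.1%, 18.1 to 61.6, against 40.1%). In no other list were 43 ESC sites (48.3%, 37.6 to 59.2, against 40.0% in the list), 11 EpiSC sites (23.9%, 12.6 to 38.8, against 30.7%), 5 MEF sites (23.8%, 8.22 to 47.2, against 43.6%) and 1 NSC site (7.69%, 0.195 to 36.0, against 47.8%). Of these 4 intervals, those of ESC, EpiSC and MEF contain the value of the whole list. That of NSC rests on 13 sites of 1 list, and sites next to each other are not independent, so it cannot serve as a test.

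Merging all sites that overlapped gave 99 regions at the locus, 76 of them (76.8%, against 31.5% of all merged regions) in pluripotent lists alone, 8 (8.08%, against 46.4%) in somatic lists alone and 15 (15.2%, against 22.2%) in both kinds. The pluripotent lists hold 89 and 46 sites here and the somatic lists 13 and 21, so shares by combination largely restate these counts. Regions of ESC alone numbered 43 (43.4%, 33.5 to 53.8, against 15.6% of all merged regions), those of ESC and EpiSC alone 22 (22.2%, 14.5 to 31.7, against 5.41%) and those of EpiSC alone 11 (11.1%, 5.68 to 19, against 10.5%). The 5 regions in all lists (5.05%, 1.66 to 11.4, against 4.05%) were those already named about 5 kb and 38 kb before Nanog and at the outer side of Dppa3, a region from 122635154 to 122635939, and a region that crosses the far edge of the window, from 122689495 to 122693205. Only 3 of the 5, those about 5 kb and 38 kb before Nanog and at the outer side of Dppa3, had bases within the window that all lists covered. In the region from 122635154 the NSC site of 98 bp overlapped the EpiSC site and neither the ESC nor the MEF site, and in the edge region the EpiSC sites lay beyond the window. In the former the highest scores were 7.01 in ESC, 4.59 in MEF, 2.47 in NSC and 2.02 in EpiSC. Bases open in any list made up 44.2% of the locus and bases open in all lists 1.88%.

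**Figure D5:**
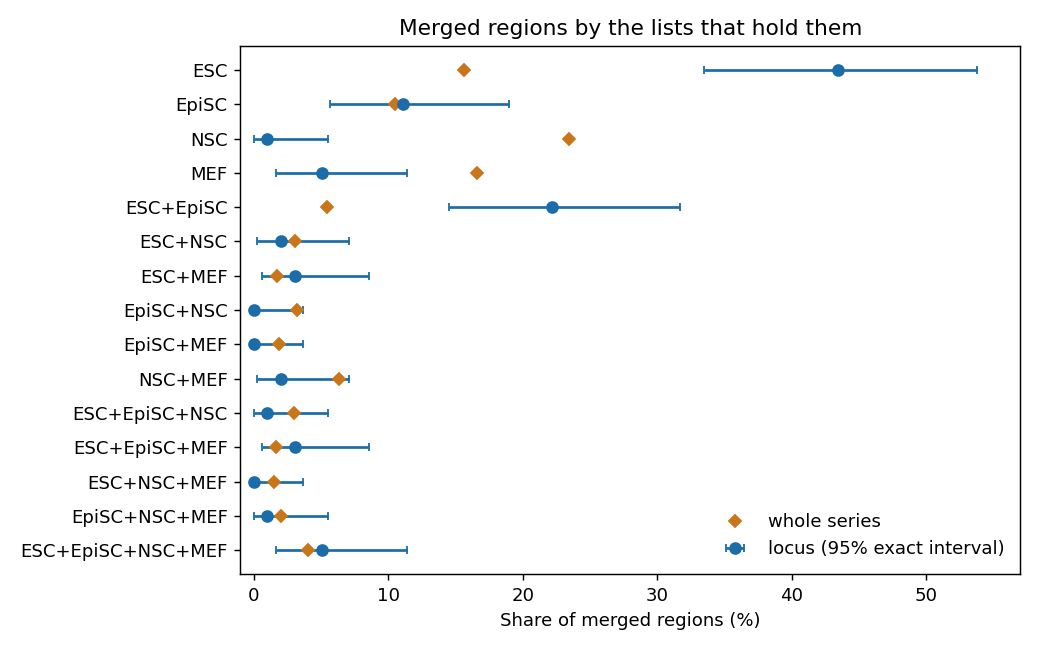
Share of merged regions in percent (x axis) for each of the 15 combinations of lists (y axis), at the locus with exact 95% intervals (circles) and in the whole series (diamonds). At the locus, regions of ESC alone (43.4%) and of ESC with EpiSC (22.2%) lie above their shares in the series, and those of NSC alone (1.01%) and MEF alone (5.05%) below. The shares largely restate the number of sites of each list at the locus.

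At the edges of the window, an ESC site of score 2.35 straddled the left edge and the last one outside ended 601 bp before it (score 3.47), and an ESC site of score 9.66 straddled the right edge with the next 806 bp beyond it (score 9.41). For EpiSC the sites inside lay 936 bp and 9331 bp from the edges (scores 3.37 and 2.97) and those outside 606 bp and 265 bp (scores 1.32 and 1.48). The NSC and MEF sites at the right edge, of scores 1.97 and 4.26, straddled it, with the next ones 2669 bp and 2489 bp beyond (scores 1.46 and 1.56). At the left edge the sites inside were 1368 bp away in NSC (score 6.24) and 393 bp in MEF (score 4.45), and those outside 1436 bp (score 2.96) and 12819 bp (score 1.60).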

How the data were processed

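Sites were read from 1 list for each of 4 cell types, each filed with replicate 2. For 6 samples, including sheared genomic DNA, no list was analysed here. The submitters' processing notes name CASAVA 1.8 and build mm9. Each deposited list gives intervals with a score computed by the authors. The sources used here do not state its unit, the aligner, the threshold, how the control entered or whether replicates were pooled. Depth is unknown.

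Intervals were taken as 0-based and half-open, and positions are printed 1-based. Sites shared between lists overlap by at least 1 bp. A score percentile is the share of the list with a lower score. Windows were laid end to end on the 19 autosomes. Intervals of shares are exact (Clopper-Pearson), at 95%. Promoters were searched on both strands. The locus, the gene limits and the choice of what to describe were made with earlier results of these data known, and bins of 10 kb were added after the values were seen. Sites named are those in or up to 1 kb before a gene, those in the 2 kb at 5 kb and 45 kb before Nanog, the 3 of highest score and the widest of each list, regions of all 4 lists, the 2 longest gaps and the edge sites. Others in the text, such as the block after Nanog, were chosen after their values were seen. Work was done in Python 3.11.15 (scipy 1.17.1, numpy 2.4.6, pandas 2.3.3, matplotlib 3.10.9). Overlap and merging were tested on simulated lists against bedtools 2.31.1. Alternatives were stricter lists, lists of equal length (387312 sites), merging of sites under 200 bp apart, midpoints, gene flanks of 5 kb and overlap of 50% of the shorter site.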

Additional observations from a re-analysis of the deposited data

How the results depend on the processing

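The order ESC, EpiSC, MEF, NSC of the counts at the locus was the same under each alternative tried. Keeping the top 50% of each list by score, which leaves fewer sites by construction, gave 23 EpiSC, 6 NSC and 13 MEF sites at the locus. Near Dppa3 it gave 4 EpiSC, 0 NSC and 0 MEF sites, near Nanog 4 EpiSC and 1 NSC, and between the genes 16 EpiSC, 2 NSC and 8 MEF. ESC sites then covered 29.5% of the locus, EpiSC sites 13.0%, NSC sites 2.60% and MEF sites 4.76%, and left 5 regions of EpiSC alone, 11 of ESC with EpiSC and 3 of all lists. Lists of equal length gave 8 NSC sites at the locus, 1 near Nanog and 4 between the genes, a coverage of 33.5% in ESC, 2.96% in NSC and 6.30% in MEF, and 3 regions of all lists. Merging sites under 200 bp apart gave 1 NSC site near Nanog and a coverage of 37.4% (ESC), 20.4% (EpiSC), 6.80% (MEF) and 4.02% (NSC). With regions up to 200 bp apart merged, 27 were of ESC alone and 7 of EpiSC alone. With 5 kb on both sides EpiSC had 5 sites near Dppa3. The other values stayed within 1.5 times (counts) or their interval (shares). Fewer sites or merging account for most of these changes by construction; otherwise the cause was not tested. No paired analysis was possible because only 1 list per cell type was at hand, and for the same reason no replicate could be left out. Depth is unknown and limits what a missing site shows.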

Other observations

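Beyond the window, on the side after Nanog, ESC and EpiSC again had more sites than NSC and MEF. Around 60 kb after the Nanog start, where mouse ES cells have a further known enhancer, a stretch of 10 kb held 5 ESC sites covering 71.1% of it, the widest of 3537 bp and the highest score 11.8, above 97.3% of its list. EpiSC had 5 sites covering 47.8% (highest score 5.39, above 82.6%). NSC had 1 site covering 3.51% (score 1.57, above 5.39% of its list) and MEF 2 covering 4.81% (highest score 1.79, above 14.2%). In the 50 kb after the window EpiSC came close to ESC in number, with 31 sites against 32, covering 38.0% and 48.2%, beside 8.17% in NSC and 7.78% in MEF. In the 50 kb before it they were further apart, with 9 EpiSC and 23 ESC sites covering 7.76% and 24.3%, beside 6 NSC and 2 MEF sites covering 4.60% and 0.792%. These stretches were chosen after the values of the locus were seen.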
